A study of Mus musculus with 6 samples.

Results

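The piRNA pathway genes were 10 genes chosen by name from the gene-level counts of sorted basal keratinocytes: *Piwil2*, *Piwil4*, *Tdrd1*, *Tdrd5*, *Tdrd6*, *Tdrd9*, *Mael*, *Ddx4*, *Mov10l1* and *Asz1*. All 10 were found by their Ensembl identifier among the 55536 identifiers counted. Bulk RNA-seq was performed on Epcam+ α6+ cells sorted from the dorsal skin of E16.5 mouse embryos, with 3 Ctrl and 3 TKO libraries. Both groups were *Suv39h1* f/f, *Suv39h2*-/-, *Setdb1* f/f and came from tamoxifen-treated litters. TKO embryos were K14CreERT2+ and Ctrl embryos K14CreERT2-, so that recombination of *Suv39h1* and *Setdb1* was possible only in TKO, in cells with an active keratin 14 promoter. The constitutive loss of *Suv39h2* was shared by both groups. The study lists its bulk RNA-seq litters as mosaic, so a TKO library may mix recombined with unrecombined cells. Whether a library held 1 embryo or several was not given in the sources used here. The study describes its replicates as biological, with both sexes in each group, and p-values measure the spread between these libraries. Ctrl replicate 1 and TKO replicate 2 were female by their library labels and the other 4 libraries were male. Values per library are given below in the order of replicates 1 to 3.

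piRNAs are small RNAs that guide PIWI proteins to transposon transcripts in germ cells, where the transcripts are cut or their loci are methylated. Precursor RNAs are unwound and trimmed, loaded onto PIWI proteins and amplified in perinuclear granules called nuage. Tudor-domain proteins hold nuage together by binding methylated arginines of PIWI proteins. Most of these genes are silent outside the germline, where DNA methylation, H3K9 methylation and a Polycomb complex that contains Mga, Max, E2f6, Pcgf6 and L3mbtl2 have been described as repressing germline promoters. The comparison of TKO with Ctrl addresses what loss of H3K9 methyltransferases changes in epidermal transcription, described here for these genes.

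Promoter sequences are shown for *Tdrd1* and *Ddx4*, whose groups did not overlap, for *Mael*, which was counted only in TKO, and for *Tdrd9*, which carried the same E-box and was not higher in TKO. RefSeq windows (GRCm38.p6) of 300 bases, ending 50 bases after an annotated transcript start, were found for 8 of the 10 members. There was no entry for *Piwil2* and *Tdrd6*. Capitals mark the E-box CACGTG, which reads the same on both strands and is bound by Max dimers, and the E2F core TCCCGC or its reverse complement GCGGGA. The windows lie at chr19:56825959-56826258 on the plus strand for *Tdrd1*, at chr13:112652261-112652560 on the minus strand for *Ddx4*, at chr1:166238695-166238994 on the minus strand for *Mael* and at chr12:111971309-111971608 on the plus strand for *Tdrd9*. Each is printed 5′ to 3′ on the strand of its gene.
Tdrd1: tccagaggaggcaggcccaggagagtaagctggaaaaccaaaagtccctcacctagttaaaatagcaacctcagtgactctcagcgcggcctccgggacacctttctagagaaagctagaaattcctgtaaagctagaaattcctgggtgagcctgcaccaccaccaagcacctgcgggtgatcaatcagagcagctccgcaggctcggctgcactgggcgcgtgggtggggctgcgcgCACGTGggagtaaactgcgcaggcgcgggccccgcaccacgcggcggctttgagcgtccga
Ddx4: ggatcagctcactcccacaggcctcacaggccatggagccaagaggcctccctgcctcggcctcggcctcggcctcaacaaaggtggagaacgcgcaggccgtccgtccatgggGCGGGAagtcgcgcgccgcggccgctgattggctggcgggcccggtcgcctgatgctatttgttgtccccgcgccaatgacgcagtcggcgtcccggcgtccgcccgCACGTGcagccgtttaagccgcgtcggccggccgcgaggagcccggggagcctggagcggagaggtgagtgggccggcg
Mael: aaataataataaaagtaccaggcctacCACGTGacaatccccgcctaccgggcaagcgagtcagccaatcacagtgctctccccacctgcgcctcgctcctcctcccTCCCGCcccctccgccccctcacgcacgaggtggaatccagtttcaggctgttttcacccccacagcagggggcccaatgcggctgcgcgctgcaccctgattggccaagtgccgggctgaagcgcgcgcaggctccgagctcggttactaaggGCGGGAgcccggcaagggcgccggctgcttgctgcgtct
Tdrd9: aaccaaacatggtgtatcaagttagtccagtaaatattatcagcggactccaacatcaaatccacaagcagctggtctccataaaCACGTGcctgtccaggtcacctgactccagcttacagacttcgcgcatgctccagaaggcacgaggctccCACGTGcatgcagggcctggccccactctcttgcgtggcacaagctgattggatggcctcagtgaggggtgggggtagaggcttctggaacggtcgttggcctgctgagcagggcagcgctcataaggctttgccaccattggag

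The E-box was present in the windows of 5 of these 8 members, namely *Tdrd1*, *Ddx4*, *Mael*, *Tdrd9* and *Mov10l1*. Among 27025 genes with a window, taking the most upstream window of each, 7.2% held it. The share of members was 62.5%. Positions are counted from the start on which the window is built, which lies 38 bases inside the gene record of *Tdrd1*, 71 inside that of *Tdrd9* and 323 inside that of *Ddx4*, and at the 5′ end of that of *Mael*. In *Tdrd1* the E-box began 11 bases before that start and in *Ddx4* 29 bases before it, whereas in *Mael* it began 223 bases before the start. *Tdrd9* held it at 165 and at 95 bases before the start. The E2F core was found in 3 members, *Tdrd5*, *Mael* and *Ddx4* (37.5%, against 20.1% of all genes), and both motifs together in *Mael* and *Ddx4*, against 2.05% of all genes. Of 18 other pathway genes with a window, 5 held the E-box (27.8%). *Rnf17*, which was higher in every TKO library, had no window. The 8 member windows had a median of 20 CpG, the dinucleotide that DNA methylation acts on, against 7 in all genes. They ranged from 10 in *Tdrd9* to 48 in *Tdrd5*, and the 18 windows of other pathway genes had a median of 17. Both motifs hold a CpG, and their shares were not compared at equal CpG content. *Tdrd1*, *Ddx4* and *Mael* all held the E-box, as did *Tdrd9*, which was not higher in TKO, and *Mov10l1*, whose counts were too low for any comparison. Of the other pathway genes with an E-box, *Piwil1* (at 179 and 154 bases before the start) was higher in every TKO library, and the groups overlapped for *Pld6* and *Wdr77*. *Stk31*, with at most 4 counts in a library, and *Fkbp6*, with at most 3, were not tested and were too low for any comparison. *Tdrd5*, with a larger log2 fold change than *Tdrd1* but overlapping groups, held none in its window. That window is built on a start 956 bases inside the gene record, so the sequence at the 5′ end of the record was not examined. A match of letters is not evidence of binding.

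**Figure D1:**
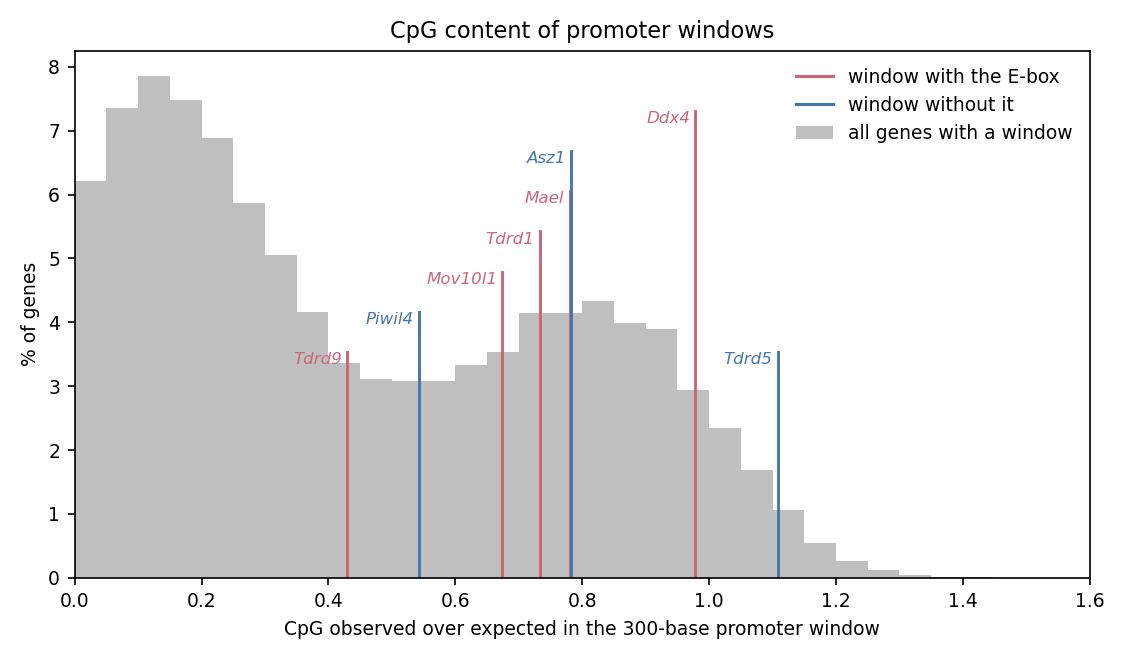
CpG observed over expected (x axis) in the 300-base promoter window, with the percentage of all 27025 genes in each bin as grey bars (y axis) and 8 piRNA pathway genes as vertical lines whose height has no meaning. *Mael* (0.780, with the E-box) and *Asz1* (0.783, without it) nearly coincide, and all 8 genes lie above the median of all genes, 0.389.

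Each library held between 102159175 and 136515436 counts. Levels are given as CPM (counts in proportion to TMM-scaled library size), and a floor of 3 counts, which allows for counting error alone, was equal to 0.0232 to 0.0303 CPM. The targeted genes were examined first. *Setdb1* measured 125.5, 117.9 and 121.1 CPM in the Ctrl libraries against 95.3, 62.3 and 74.9 CPM in the TKO libraries. All TKO libraries were below all Ctrl libraries (log2 fold change -0.65, SE 0.161), with adjusted p-values of 0.286 in edgeR and 0.0449 in DESeq2. *Suv39h1* (83.7 ± 5.10 CPM in Ctrl and 78.0 ± 10.5 in TKO; SD, n = 3) and *Suv39h2* (16.2 ± 0.784 and 17.5 ± 1.46) overlapped between groups, and whole-gene counts do not separate deleted exons from the rest. In these bulk libraries a change in the number of expressing cells cannot be told apart from a change in RNA per cell.

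Detection of the 10 members was uneven. At least 1 library was above the floor for 9 of them (61.7% of all identifiers), and all 6 libraries were for 7. *Mov10l1*, the helicase that feeds precursors into the pathway, had at most 2 counts in any library and was not detectable at this depth. *Asz1*, a mitochondrial scaffold protein of nuage, measured 1, 0 and 7 counts in the Ctrl libraries against 0, 0 and 9 counts in the TKO libraries. *Mael* was the third gene at or under the floor in some libraries. Only 6 members passed the low-count filter and were tested, among 20622 tested genes. *Ddx4* and *Tdrd5* reached the count minimum in fewer than 3 Ctrl libraries and passed only through TKO, where they were higher, so the counts and median over the 6 that follow are descriptions and support nothing. edgeR's quasi-likelihood test with Benjamini-Hochberg adjustment over all tested genes called 0 of the 6 higher (background 0.131%) and 0 lower (background 0%). At an unadjusted p-value under 0.05, 2 of the 6 were higher (background 4.06%) and 0 lower (2.02%). DESeq2 called 2 higher (background 0.936%) and 0 lower (0.102%). Both were *Tdrd1* and *Ddx4*, and the same genes were the 2 members whose TKO libraries all exceeded the Ctrl libraries (background 6.35%, with 5.11% in the opposite direction). The median log2 fold change of the 6 was 0.89, against 0.01 for all tested genes.

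*Tdrd1* (chromosome 19, 56826171 to 56870012 in GRCm38.p6) encodes a Tudor-domain scaffold of nuage that binds methylated PIWI proteins. It measured 14.3, 20.4 and 22.2 CPM in the Ctrl libraries against 41.9, 71.0 and 41.3 CPM in the TKO libraries. All TKO libraries lay above all Ctrl libraries, TKO replicates 1 and 3 were close to each other, and TKO replicate 2 was the highest. Its level in Ctrl was already far above the floor. Its log2 fold change was 1.44 (SE, the standard error, 0.248), or 2.71-fold, and edgeR's quasi-likelihood test gave an adjusted p-value of 0.0879. Blocking on replicate lowered it to 0.0305, and DESeq2 gave 9.63e-06. Over all 12 alternatives it ranged from 6.90e-12 to 0.388, and the log2 fold change from 1.13 to 1.57. In male libraries alone *Tdrd1* averaged 21.3 CPM (2 Ctrl libraries) against 41.6 (2 TKO libraries), and the female pair had 14.3 CPM (Ctrl) against 71.0 (TKO). No other gene of GENCODE vM39 overlaps *Tdrd1*. It supplied between 90.0% and 95.9% of the members' counts in each library, so the summed level of the 10 genes, 20.4 ± 4.18 CPM in Ctrl and 53.8 ± 17.9 in TKO (SD, n = 3), is mainly that of *Tdrd1*. The other 9 together were at 1.59, 0.867 and 1.91 CPM in Ctrl and at 1.86, 3.35 and 1.89 CPM in TKO, where only TKO replicate 2 was above, and TKO replicates 1 and 3 were below, the highest Ctrl library.

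*Ddx4* (chromosome 13, 112598333 to 112652633), the Vasa RNA helicase widely used as a germ cell marker, was near the floor in Ctrl. It measured 6, 8 and 10 counts in the Ctrl libraries against 51, 58 and 46 counts in the TKO libraries. The 3 TKO libraries were close to each other and the groups were far apart. In CPM it averaged 0.0718 ± 0.0182 in Ctrl and 0.446 ± 0.0742 in TKO (SD, n = 3), a log2 difference of 2.62 (SE 0.657) for which edgeR's test gave an adjusted p-value of 0.296. DESeq2 gave 0.0427, and the adjusted p-value ranged from 0.0427 to 0.99997 over 11 alternatives, in which the log2 fold change stayed between 2.48 and 2.84. In the female libraries *Ddx4* was 8.67-fold and in the male libraries 5.25-fold higher in TKO, and it overlaps no other gene of GENCODE vM39. Even in TKO its length-scaled level was 0.121 CPM per kb of exon, against 9.43 for *Tdrd1*.

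*Mael* (chromosome 1, 166201385 to 166238744), a nuage protein needed for transposon silencing, was the one member without a count in any Ctrl library. It also had 0 counts in TKO replicate 1, with 20 counts in replicate 2 and 56 in replicate 3. The groups touched at 0, and *Mael* was not tested because fewer than 3 libraries reached the count minimum. Against the floor of 3 counts per Ctrl library, its mean in TKO was at least 7.89-fold higher. This bound rests mainly on TKO replicate 3, without which it was 3.34-fold, a repeat chosen after seeing the data. It was called in the fit without a low-count filter (edgeR's adjusted p-value 0.0257), which is the one alternative that tested it with all 6 libraries. *Mael* overlaps the predicted gene *Gm70596* in GENCODE vM39.

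The groups overlapped for the other Tudor-domain genes among the 10 members. *Tdrd5*, needed for piRNA production and nuage assembly, measured 0.363, 0.0464 and 0.223 CPM in the Ctrl libraries against 0.306, 1.38 and 0.460 CPM in the TKO libraries. TKO replicate 2 was far above the rest, and TKO replicate 1 was below Ctrl replicate 1. Its log2 fold change of 1.77 (SE 0.810, edgeR's adjusted p-value 0.846) was 0.87 without TKO replicate 2. *Tdrd5* overlaps *A430050A11Rik* on its own strand and *4930518J20Rik* on the other. *Tdrd6*, a component of the chromatoid body of spermatids, measured 0.121, 0.201 and 0.2505 CPM in the Ctrl libraries against 0.433, 0.263 and 0.0329 CPM in the TKO libraries, which held both the highest and the lowest library. Its log2 fold change was 0.34 (SE 0.902). *Tdrd9*, an ATP-dependent helicase with a Tudor domain, measured 0.232, 0.101 and 0.492 CPM in the Ctrl libraries against 0.170, 0.0906 and 0.107 CPM in the TKO libraries. Its log2 fold change was -1.16 (SE 0.819), and -0.43 without Ctrl replicate 3, so this difference was within the replicate spread.

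Transcripts of the PIWI proteins themselves were low in both groups. *Piwil2*, the PIWI protein that takes part in piRNA amplification, measured 70, 53 and 74 counts in the Ctrl libraries against 51, 89 and 41 counts in the TKO libraries. The groups overlapped fully, with a log2 fold change of -0.19 (SE 0.508). *Piwil4*, the nuclear PIWI protein that directs DNA methylation, had 7, 4 and 11 counts in Ctrl and 8, 12 and 5 in TKO, and was not tested. Neither of these PIWI genes showed a detectable difference beside that of *Tdrd1*.

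**Figure D2:**
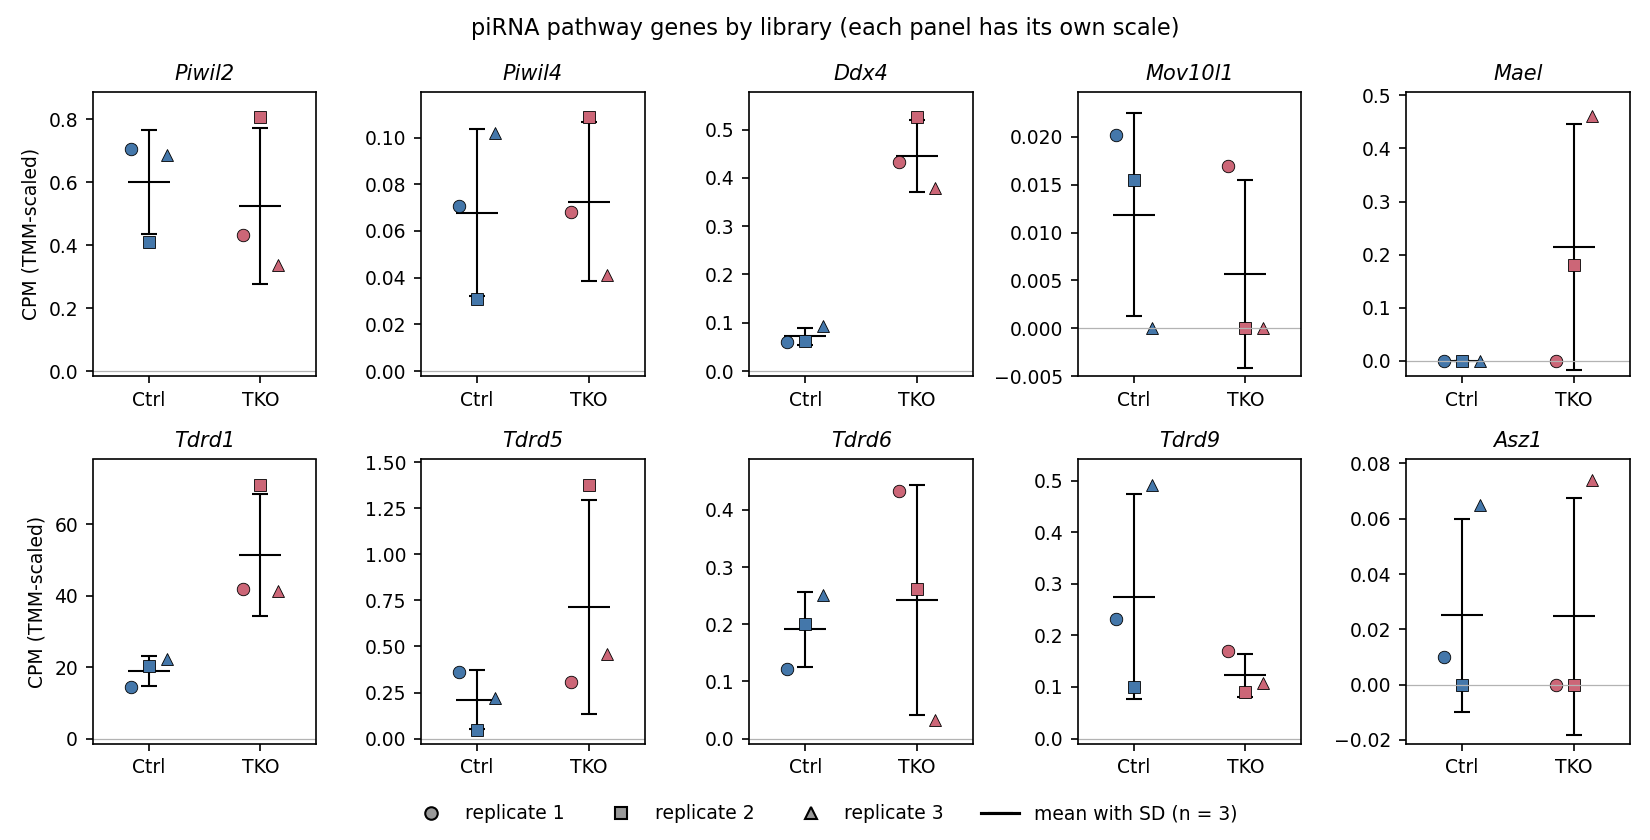
CPM of the 10 piRNA pathway genes (y axis, each panel on its own scale) in 3 Ctrl and 3 TKO libraries, with symbols for replicates and a bar for the mean with its SD. The groups separate for *Tdrd1* and *Ddx4*, *Mael* appears in 2 TKO libraries, and the other 7 overlap.

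Levels between genes were compared per kb of exon. In Ctrl *Tdrd1* was at 3.48 ± 0.759 CPM per kb (SD, n = 3), 34.0 times the mean of the next member, *Piwil2*, at 0.102 ± 0.0282. All 3 libraries of *Tdrd1* were above those of *Piwil2*. Below it each member overlapped its neighbour in the order *Piwil2*, *Tdrd9*, *Tdrd6*, *Tdrd5*, *Ddx4*, *Piwil4*, *Asz1*, *Mov10l1* and *Mael*. In TKO *Tdrd1* was again first, at 9.43 ± 3.12 CPM per kb, followed by *Mael* and *Ddx4*, at means of 0.122 and 0.121, which ranked 10 and 6 in Ctrl. From *Mael* down neighbours again overlapped, and *Mael* itself ranged from 0 to 0.263 over the TKO libraries. Somatic relatives of the members were expressed throughout. The Argonaute genes *Ago1* to *Ago4*, which carry microRNAs, ranged from 2.10 to 25.5 CPM per kb in Ctrl, and *Mov10*, the somatic paralogue of *Mov10l1*, was at 4.96 ± 0.178. Of 8 such relatives edgeR's test called 0 and DESeq2 0. At an unadjusted p-value under 0.05 in edgeR's test, 1 was higher (background 4.06%), *Ago2* (log2 fold change 0.40, SE 0.165). The most abundant of the 8 were *Ddx3x*, a helicase related to *Ddx4*, at 82.2 CPM per kb in Ctrl, and *Snd1*, a Tudor-domain nuclease, at 30.5.

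**Figure D3:**
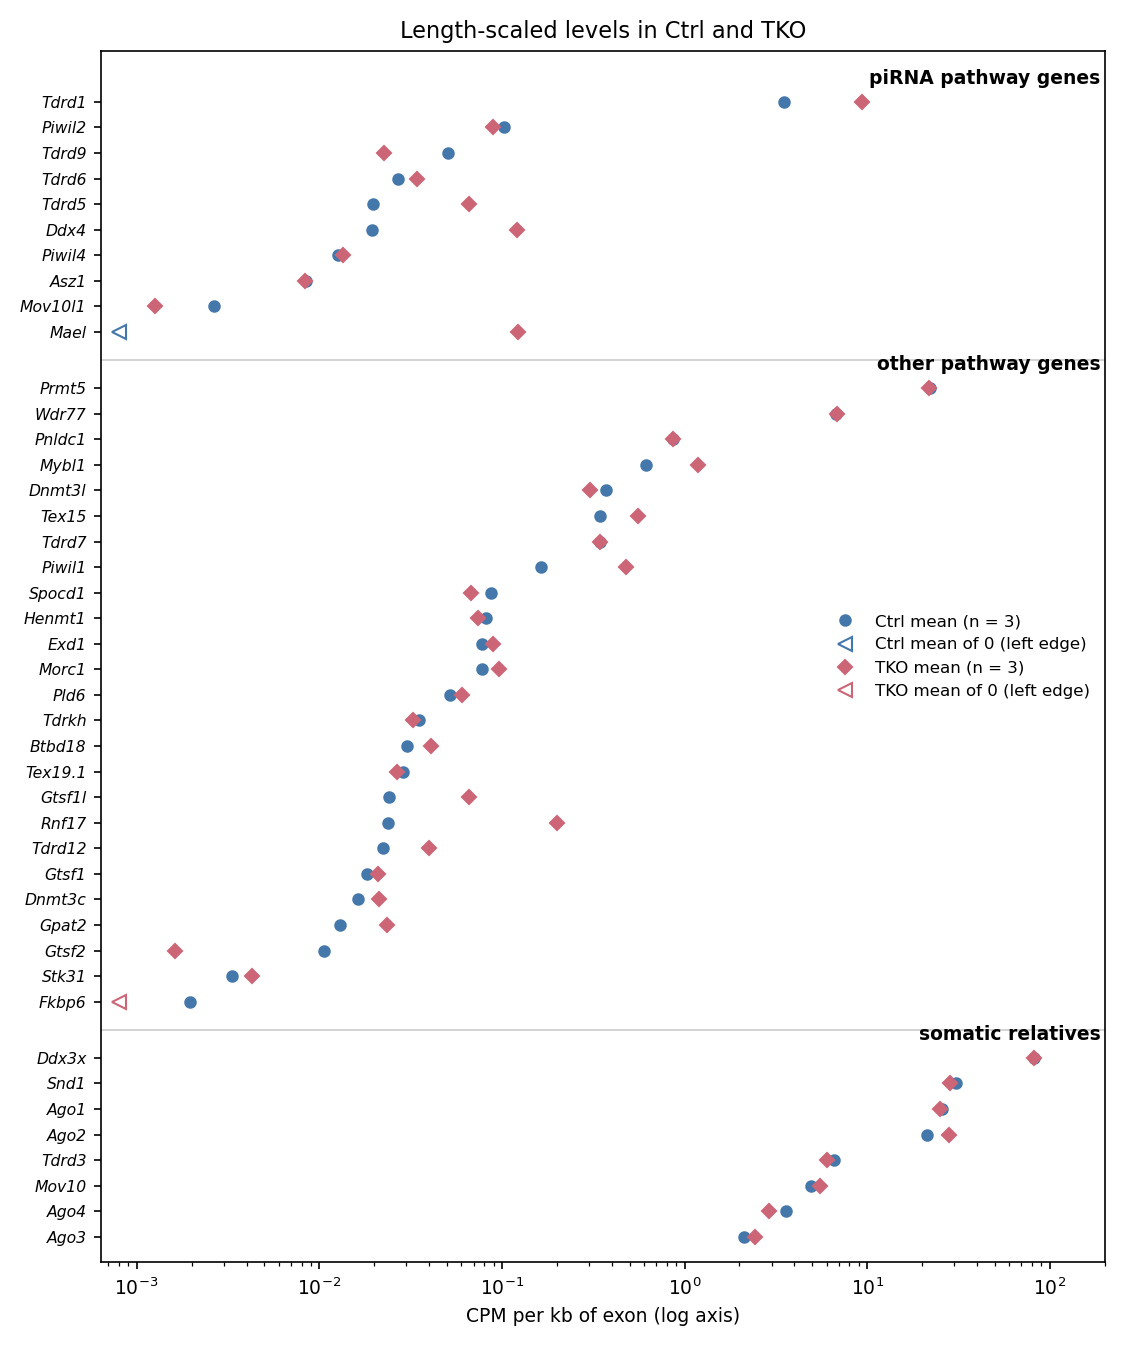
Mean CPM per kb of exon (x axis, log scale) in Ctrl and TKO (n = 3 each) for 10 piRNA pathway genes, 25 other genes of the pathway and 8 somatic relatives, with means of 0 drawn as open triangles at the left edge. *Tdrd1* is the one member within the range of the somatic relatives, and among the members *Ddx4* and *Mael* stand furthest to the right of their Ctrl level.

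The rest of the pathway was described with a list of 25 further genes, of which 17 were tested. None passed edgeR's test (0 of 17 called), with 3 higher (background 4.06%) and 0 lower (2.02%) at an unadjusted p-value under 0.05, and DESeq2 called 2 higher (background 0.936%). Blocking on replicate, edgeR called 1 of them, and 45 of all 20622 tested genes. The median log2 fold change of the 17 was 0.20, and 11 of the 17 were positive, where 51.9% of all tested genes were. *Tdrd12* and *Btbd18* reached the count minimum in fewer than 3 Ctrl libraries and passed only through TKO, where their means were higher. The counts and median over the 17 are therefore descriptions and support nothing. Separation of all libraries was seen for 2, *Piwil1* and *Rnf17*, both higher in TKO (background 6.35%, with 5.11% lower).

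*Piwil1*, the PIWI protein of spermatocytes and spermatids, measured 0.656, 0.526 and 1.09 CPM in the Ctrl libraries against 2.18, 2.71 and 1.78 CPM in the TKO libraries. The TKO libraries all exceeded the Ctrl libraries, in contrast with *Piwil2* and *Piwil4*. Its log2 fold change was 1.56 (SE 0.405), and the adjusted p-value was 0.3199 in edgeR and 0.0134 in DESeq2 (0.0134 to 0.99997 over 12 alternatives). *Rnf17*, a Tudor-domain protein that limits piRNA amplification, measured 0.111, 0.588 and 0.269 CPM in the Ctrl libraries against 1.33, 5.72 and 1.13 CPM in the TKO libraries. TKO replicate 2 was several times above the other TKO libraries, which themselves lay above Ctrl. Its log2 fold change of 3.06 (SE 0.776) gave an edgeR adjusted p-value of 0.305, of 0.0478 with the block and 0.00135 from DESeq2 (5.38e-07 to 0.99997 over 12 alternatives). Without TKO replicate 2 it was 1.92. *Piwil1* and *Rnf17* overlap annotated genes on the other strand, *Rnf17* also *Gm24392* on its own strand, and whether the counting used strand was not stated.

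*Mybl1*, the transcription factor that switches on pachytene piRNA loci and their processing genes, was at 4.79 ± 0.899 CPM in Ctrl and 9.20 ± 4.86 in TKO (SD, n = 3). TKO replicates 1 and 2 were above Ctrl and TKO replicate 3 was below it, so the groups overlapped (log2 fold change 0.94, SE 0.391, edgeR's adjusted p-value 0.778). *Tex15*, which acts with PIWI in transposon methylation, showed the same order of TKO libraries, with a log2 fold change of 0.68 (SE 0.478). *Prmt5* and *Wdr77*, which form the arginine methyltransferase that modifies PIWI proteins and are used by all cells, were the most abundant of the list, at 95.6 ± 4.39 and 34.9 ± 2.18 CPM in Ctrl. Their log2 fold changes were -0.03 (SE 0.170) and 0.02 (SE 0.143). The trimmer *Pnldc1* (2.83 ± 0.493 CPM in Ctrl and 2.83 ± 0.118 in TKO) and the Tudor-domain gene *Tdrd7* (2.89 ± 0.421 and 2.88 ± 0.5098) were detected in all libraries with log2 fold changes of 0.001 and -0.004. Of the 8 genes not tested, *Fkbp6* had 3 counts in Ctrl replicate 1 and 0 in the 5 other libraries.

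**Figure D4:**
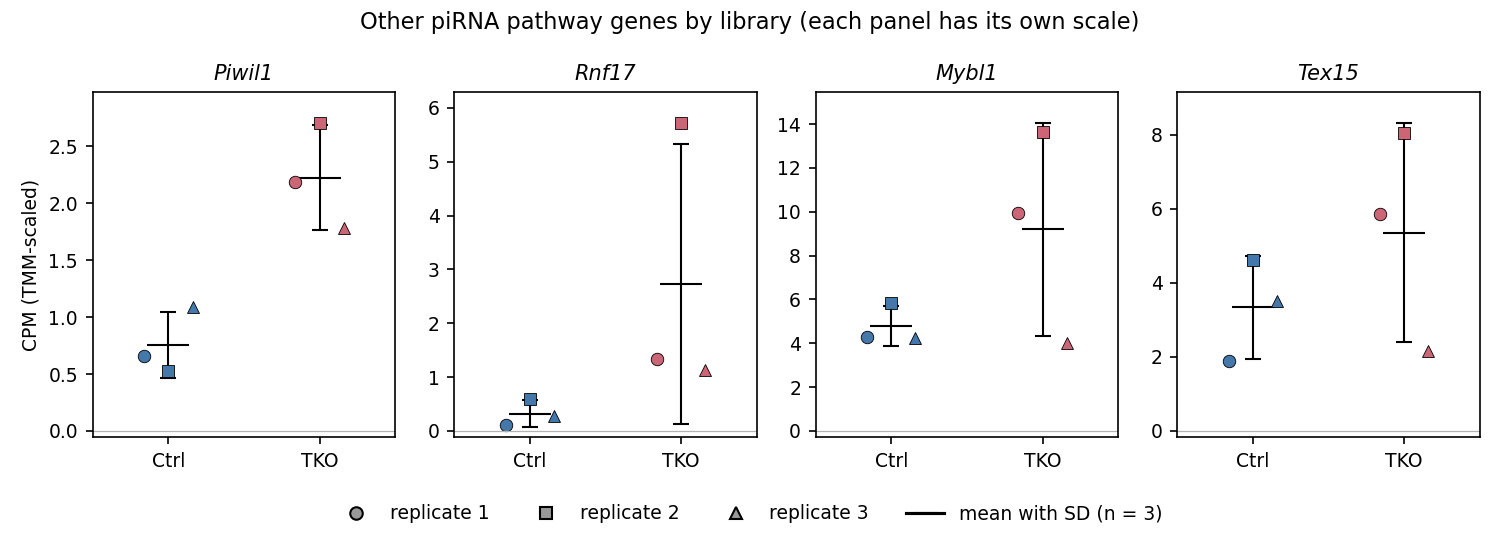
CPM of *Piwil1*, *Rnf17*, *Mybl1* and *Tex15* (y axis, each panel on its own scale) in 3 Ctrl and 3 TKO libraries, with symbols for replicates and a bar for the mean with its SD. TKO replicate 2 is the highest library in all 4 panels, and the groups overlap for *Mybl1* and *Tex15*.

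**Figure D5:**
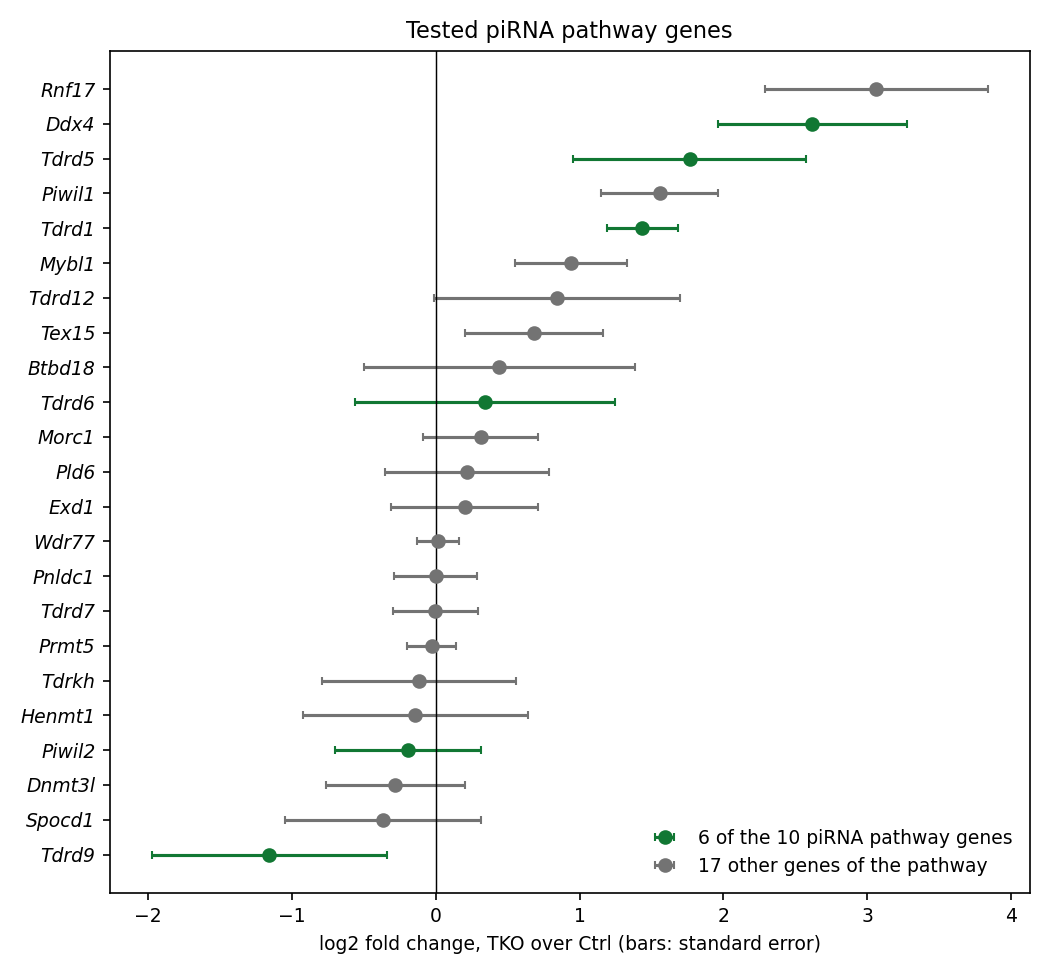
log2 fold change of TKO over Ctrl with its standard error (x axis) for the 6 piRNA pathway genes and the 17 other pathway genes that were tested. *Rnf17* (3.06), *Ddx4* (2.62), *Tdrd5* (1.77), *Piwil1* (1.56) and *Tdrd1* (1.44) lie furthest to the right, and *Tdrd1* has the smallest standard error of these 5.

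Genes of complexes known to silence germline promoters were examined beside the members. Of 11 such genes edgeR's test called 1 higher (background 0.131%), *Atf7ip*, the cofactor that stabilizes Setdb1. It measured 166.7, 177.0 and 219.2 CPM in the Ctrl libraries against 360.0, 468.6 and 385.1 CPM in the TKO libraries. The groups were far apart (log2 fold change 1.11, SE 0.164), and edgeR's adjusted p-value was 0.0429 (3.70e-08 to 0.2698 over 12 alternatives, 5 of which called it, and 1 of the 6 with a library left out). *Dnmt3b*, a de novo DNA methyltransferase, also had all TKO libraries above Ctrl (background 6.35%). It was at 16.0 ± 1.52 CPM in Ctrl and 23.0 ± 4.84 in TKO (SD, n = 3), with edgeR's adjusted p-value at 0.658. The most abundant of the 11 were *Trim28* (425.2 ± 50.5 CPM in Ctrl and 400.3 ± 38.9 in TKO) and *Dnmt1* (357.1 ± 33.5 and 386.3 ± 14.6). For *Mga*, *Max*, *E2f6*, *Pcgf6* and *L3mbtl2* the groups overlapped, with log2 fold changes between -0.02 and 0.23.

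Markers of other germ cell programmes were mostly near the floor. Of 14 germ cell identity genes 5 were tested, and edgeR called 0, with 0 at an unadjusted p-value under 0.05, as did DESeq2. Summed, the 14 were at 103.2 ± 22.4 CPM in Ctrl (SD, n = 3) against 82.2 ± 5.95 in TKO, nearly all of it from *Zbtb16*, at 98.8 and 77.7 CPM, which is not restricted to germ cells. The next most abundant was *Gfra1*, a growth factor receptor subunit that other tissues also use, at 2.23 ± 0.914 CPM in Ctrl and 2.56 ± 1.22 in TKO. The 9 genes not tested had few counts and went in both directions. *Sycp3*, of the meiotic chromosome axis, had 0, 6 and 0 counts in Ctrl and 31, 24 and 0 in TKO, whereas *Sycp1*, which joins these axes, had 17, 0 and 19 in Ctrl and 0, 1 and 0 in TKO. *Nanos2*, *Sohlh1* and *Sohlh2* had at most 7 counts in a Ctrl library and none in TKO. Among the tested genes *Dazl*, an RNA-binding protein of germ cells, had 8, 2 and 16 counts in Ctrl and 0, 20 and 23 in TKO, which overlapped.

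The labelled cell type was checked with 8 basal keratinocyte markers, which summed to 22179 ± 3528 CPM in Ctrl and 17028 ± 2110 in TKO, with *Krt5* and *Krt14* the most abundant. Among all tested genes, 6.35% were higher and 5.11% lower in every TKO library. *Krt15* was lower in every TKO library (log2 fold change -1.18, edgeR's adjusted p-value 0.185, called by DESeq2). *Itgb4* was higher in every TKO library (log2 fold change 0.24, unadjusted p-value 0.143 in edgeR's test). Of 5 differentiation markers, *Krt1* and *Krt10* were also abundant, at 9941 ± 150.1 and 8472 ± 875 CPM in Ctrl, and lower in every TKO library. The groups overlapped for *Ivl*, *Krtdap* and *Sbsn* (log2 fold changes -0.05, -0.03 and 0.41). Of 8 skeletal muscle markers, *Myh3* was called by edgeR (adjusted p-value 0.0211), *Ttn*, *Myh8* and *Acta1* also by DESeq2, and the groups overlapped for *Acta1*, *Tnnt3*, *Myod1*, *Myog* and *Pax7*. The sum of the 8 was 6.63 ± 3.61 CPM in Ctrl and 32.6, 32.2 and 32.7 CPM in the TKO libraries, with *Ttn* the most abundant, so it was higher in TKO as *Tdrd1* was but did not peak in TKO replicate 2. Merkel cell markers were lower in TKO, with a sum of 3.95 ± 1.02 CPM in Ctrl against 1.26 ± 0.585 over 4 genes, led by *Sox2* and *Atoh1*. Of the 3 that were tested edgeR called 0, and DESeq2 called *Isl1* (edgeR's log2 fold change -2.57). Sums of fibroblast (2533 ± 1161 and 2520 ± 327 CPM, led by *Col1a1* and *Dcn*), melanocyte (7.03 ± 3.01 and 10.5 ± 1.35, led by *Dct* and *Pmel*), immune (15.8 ± 8.60 and 17.1 ± 18.3, led by *Csf1r* and *Tyrobp*) and endothelial markers (28.3 ± 5.65 and 44.2 ± 18.9, led by *Cdh5* and *Pecam1*) overlapped between groups. Among the melanocyte markers *Mlana* was higher in every TKO library, from 0.108 ± 0.0811 to 0.943 ± 0.615 CPM. TKO replicate 2, the library with the most *Tdrd1*, *Rnf17* and *Tdrd5*, also had the highest immune (37.9 CPM) and endothelial (61.2 CPM) sums and the lowest *Setdb1*. The part of these differences in the pathway results was not tested.

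The genes whose log2(CPM + 1) followed *Tdrd1* most closely over the 6 libraries, among 14051 other genes with a mean of at least 1 CPM, were *Aplp2* (Pearson's r = 0.995), *Osbpl3* (0.994), *Dnah8* (0.993), *Smarca5-ps* (0.989) and *Stxbp6* (0.988). All genes share the same 6 libraries, so this is a description. *Dnah8*, an axonemal dynein heavy chain of sperm tails, was at 12.2 ± 1.51 CPM in Ctrl and 27.1 ± 6.43 in TKO (SD, n = 3), a log2 difference of 1.15 for which edgeR gave an adjusted p-value of 0.0879. *Aplp2* was abundant in both groups and had a log2 fold change of only 0.18.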

How the data were processed

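Bulk RNA-seq libraries were made by the authors from rRNA-depleted total RNA and sequenced in pairs of reads. Reads were trimmed with fastp and aligned with STAR, to GRCm39 per the methods and GRCm38 per the submitters' processing notes. The authors deposited raw counts per Ensembl gene without normalization or pooling. The counting program, annotation and strand setting were not given in the sources used here. Of 55536 identifiers, 51477 were matched to GENCODE vM39, which gave symbols, exon lengths and overlaps. Unmatched identifiers held 5.91% to 13.6% of counts. Positions and promoter sequences are from RefSeq on GRCm38.p6.

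The tests ran under R 4.3.3 (edgeR 4.0.16, DESeq2 1.42.0). Genes were kept by filterByExpr (minimum count 10, minimum total 15), which left 20622, scaled by TMM and tested with glmQLFit (robust) and glmQLFTest. A gene was called where its adjusted p-value (Benjamini-Hochberg) was below 0.05 and its log2 fold change exceeded 1 in size. Standard errors are the log2 fold change over the square root of the F statistic. Scripts were tested on simulated data.

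Replicate numbers are shared between groups. Deviations from the group means of log2(CPM + 1) correlated between same-numbered libraries (0.165, 0.202 and 0.316) and between other libraries at -0.268 to 0.0266. On a log scale with a prior count the same-numbered values were 0.0873 to 0.168. Deviations cancel out within each group, so lower values between other libraries follow from positive same-numbered values and are not separate evidence. The pairing is read from the same-numbered values alone, and the labels do not state what the shared numbers mark. Same-numbered libraries also carry consecutive sample numbers in their library labels. Blocked values are given where they change a call.

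The members and gene lists were chosen with earlier results of these data known. Genes named are the members, the targeted genes, called or separated genes with an unadjusted p-value under 0.05 and the 2 most abundant of each other list, and the 5 genes closest to *Tdrd1*. Pathway genes named beyond this rule (*Mybl1*, *Tex15*, *Pnldc1*, *Tdrd7*, *Fkbp6*, *Tdrd12*, *Btbd18*) were chosen after their values were seen. This also holds for the Polycomb and Argonaute genes and for *Itgb4*, *Acta1*, *Tnnt3*, *Myod1*, *Myog*, *Pax7*, *Dazl*, *Stk31*, *Pld6* and *Mov10*. It holds as well for *Sycp1*, *Sycp3*, *Nanos2*, *Sohlh1*, *Sohlh2*, *Ivl*, *Krtdap* and *Sbsn*. Alternatives were DESeq2, RLE size factors, no or a stricter low-count filter, the replicate block, sex as a factor, no fold threshold and each library left out in turn.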

Additional observations from a re-analysis of the deposited data

How the results depend on the processing

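The call of pathway genes depended on the test and filter, the direction of *Tdrd1*, *Ddx4* and *Tdrd5* (higher) and *Tdrd9* (lower) on none of the alternatives run. edgeR called 27 genes in all, 214 were called by DESeq2 on the same genes, 235 without a low-count filter (39690 genes tested), 9 with at least 10 counts in every library, a filter that left *Tdrd5*, *Tdrd6* and *Ddx4* without a value, and 45 with the replicate block. Of the members, edgeR called 0, DESeq2 called 2 (*Tdrd1*, *Ddx4*), the fit without a low-count filter called 2 (*Tdrd1*, *Mael*) and the replicate block called 1 (*Tdrd1*). Of the other pathway genes edgeR called 0, DESeq2 called 2 (*Rnf17*, *Piwil1*), and the fit without a filter and the replicate block each called 1 (*Rnf17*). The replicate block changed no other call among these genes. The cause of these differences was not tested. With 1 library left out, calls ranged from 7 to 81 over all genes (7 without Ctrl replicate 2, 8 without Ctrl replicate 1 or 3, 15 without TKO replicate 2, 81 without TKO replicate 3), from 0 to 1 over the members and stayed at 0 over the other pathway genes. The 1 member was *Tdrd1*, called without TKO replicate 3 (adjusted p-value of 0.0463 from edgeR's test). The log2 fold change of *Piwil2* ranged from -0.64 to 0.044 with 1 library left out and reversed without TKO replicate 3. That of *Tdrd6* ranged from -0.39 to 0.86, reversed without TKO replicate 1, and was -0.046 with the replicate block. At these depths *Mov10l1*, *Asz1* and *Piwil4*, with at most 12 counts in a library, could not show a difference of moderate size.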
